A study of Drosophila melanogaster with 36 samples.

Results

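The genes described here encode the protein subunits of the mitochondrial ribosome of Drosophila melanogaster. They were taken as every gene of the count table whose FlyBase symbol starts with mRpL or mRpS followed by a digit, which gave 72 of 17552 genes. Of these, 47 belong by name to the large subunit and 25 to the small subunit. All counts, medians and colours by subunit below go by this name alone. By the numbering of the family, 41 have a counterpart in the bacterial ribosome and 31 are specific to mitochondria.

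Mitochondria keep a small genome of their own, and the few proteins it encodes, all subunits of the respiratory chain and ATP synthase, are made inside the organelle on a dedicated ribosome. Only the RNAs of that ribosome come from the mitochondrial genome. Its proteins are encoded in the nucleus, made in the cytosol and imported, so the whole particle depends on nuclear genes being expressed together. Oocytes of the fly are packed with mitochondria that are passed on to the embryo, and muscle, brain and eye are rich in mitochondria for their energy supply.

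RNA was sequenced from heads and abdomens of females of the IV base population. Virgins (3 pools per tissue) were frozen at 4 days of age without mating. Mated females met a male at 3 days of age and were frozen 24 hours later. Their mates came from 6 populations derived from the same base population and kept for 182 generations at a census size of 200: M1, M2 and M3 under enforced monogamy, and P1, P2 and P3 in polygamous groups with 5 males each. The males themselves had spent a further generation under common conditions, and every pool held tissue of 20 females. A mated library thus stands for the mates of males of a single population (3 M and 3 P per tissue), whereas the labels do not say if the 3 virgin pools were reared apart, so the spread that p-values rest on may in part be technical. In bulk tissue, fewer cells of a type and less RNA per cell cannot be told apart.

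The 18 libraries held 40396031 to 64761633 counts. Of these, 111789 to 168189 per abdomen library and 48866 to 74491 per head library fell on the 72 genes. Tissue identity was as labelled: photoreceptor markers summed to 71743 to 86516 CPM (read counts scaled to a common library total) in heads and to 178 to 231 CPM in abdomens, and 22 germline markers to 466.2 to 618 CPM in heads and to 10733 to 14943 CPM in abdomens. Transcripts of midgut proteases stood at 9071, 6736 and 14007 CPM in the heads of virgin 1, M1 and M2 and at 12.4 to 95.8 CPM in the other heads. Mating in heads, P against M in heads, the interaction and the tissue medians are therefore also given without these 3 libraries.

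The 72 genes lie on all large chromosome arms: 12 on 2L, 12 on 2R, 16 on 3L, 21 on 3R and 11 on X, with none on the fourth chromosome. They are compact. Their median merged exon length was 783 bases (range 327 to 2078), against 1733 bases over 13812 protein-coding genes, and 9 of them have a single exon. Exons of 42 of the genes overlap a gene on the other strand, by more than 25% in mRpS24 (55.3%, with TBC1d7), mRpS21 (48.0%, with CG8870), mRpS14 (32.0%, with Naa15-16) and mRpS9 (25.1%, with ArgRS-m). The libraries carry strand information, but the strand setting of the counting is not given in the sources used here, so counts of these 4 genes are uncertain. So are those of mRpL13, which shares 35.2% of its exon bases with CG10602 on the same strand.

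One gene had no count at all. All exon bases of mRpL53 lie within exons of CG33155 on the same strand, and its 0 counts of 897190423 in 18 libraries allow at most 0.00334 CPM, counting error only. This says nothing about its expression, since its reads cannot be told apart from those of CG33155. The other 71 genes passed the filter on low counts in both tissues and were tested in every comparison.

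Levels of different genes were compared per kilobase of exon, as CPM scaled within each tissue by the trimmed mean of M-values (TMM, which aligns the bulk of genes between libraries). In virgin abdomens the 71 genes had a median of 44.8 scaled CPM per kb, and 61 of them lay within 2-fold of it. In virgin heads the median was 17.8, and 64 lay within 2-fold. The large and the small subunit had nearly the same median per-kb level, at 44.6 and 45.9 in abdomens and at 17.4 and 17.9 in heads. Proteins of the cytosolic ribosome stood far above, with median levels of 795 in virgin abdomens and 796 in virgin heads. Nuclear genes of the respiratory chain had median levels of 68.5 and 126.5, and 29 tested genes of a list of mitochondrial translation factors and aminoacyl-tRNA synthetases 18.4 and 7.01. That list also counts tko and bonsai, which encode small subunit proteins outside the naming rule. Leaving both out, a choice made after seeing the data, gave 17.02 and 7.01 over 27 genes.

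**Figure D1:**
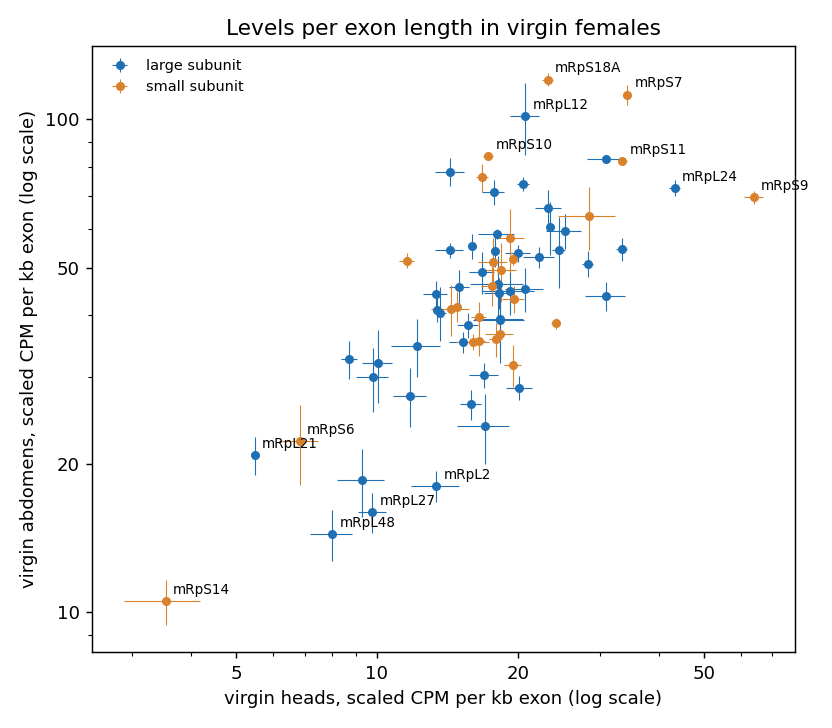
Levels of 71 mitochondrial ribosomal protein genes in virgin heads (horizontal) and virgin abdomens (vertical), both in scaled CPM per kb of exon on log axes. Points are means of 3 libraries and bars are SD. Blue points are large subunit genes and orange points small subunit genes. mRpS9 lies far to the right of the cloud, at 63.9 in heads, and mRpS14 at its lower left, at 3.53.

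The highest per-kb levels in virgin abdomens belonged to mRpS18A at 120 ± 3.4 (SD, n = 3), mRpS7 at 112 ± 5.4, mRpL12 at 102 ± 17 and mRpS10 at 84.3 ± 1.6. mRpL12 is the counterpart of the bacterial stalk protein that recruits translation factors to the ribosome. The values of mRpS7 lie within the spread of mRpL12. In virgin heads the order was led by mRpS9 at 63.9 ± 3.0, whose bacterial counterpart contacts the tRNA in the peptidyl site, then mRpL24 at 43.3 ± 1.1, mRpS7 at 34.3 ± 0.39 and mRpS11 at 33.5 ± 0.70. The last pair do not differ beyond their spread.

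The lowest per-kb levels in virgin abdomens were those of mRpS14 at 10.5 ± 1.1, mRpL48 at 14.4 ± 1.7, mRpL27 at 16.0 ± 1.5 and mRpL2 at 18.0 ± 1.3. In virgin heads they were those of mRpS14 at 3.53 ± 0.65, mRpL21 at 5.48 ± 0.056, mRpS6 at 6.83 ± 0.66 and mRpL48 at 8.02 ± 0.83. mRpS14 was thus the lowest in both tissues. mRpL2 and mRpL27 are counterparts of bacterial proteins at the peptidyl transferase centre.

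Relative to the bulk of genes, abdomens carried about 2-fold more RNA of mitochondrial ribosomal protein genes than heads did, and the median log2 difference of the family was above 0 under all 5 scalings, from 0.82 to 3.24 in virgins and from 0.80 to 2.30 in mated females. The upper ends came from scaling on muscle and renal tubule genes, which also put the all-gene median at 2.04 and 1.40. In virgins 67 of the 71 genes were higher in the abdomen and none was lower, where 88.5% of all 11631 genes tested differed, 44.1% being higher and 44.5% lower (edgeR quasi-likelihood test, adjusted p below 0.05). Their median log2 difference was 1.10, a 2.15-fold higher level, beside -0.03 over all genes. In mated females 68 were higher and 1 lower, where 90.7% of all genes differed, 46.6% being higher and 44.1% lower. The median was 0.97 (1.96-fold) beside 0.08 over all genes. Without the heads of virgin 1, M1 and M2 the medians were 1.10 in virgins, with 66 genes higher and none lower, and 1.004 in mated females, with 65 higher and 1 lower. Of all genes, 43.7% were then higher in virgins and 44.6% in mated females. In virgins the large subunit had a median of 1.06 with 43 of 46 genes higher, and the small subunit a median of 1.16 with 24 of 25 higher. Genes with a bacterial counterpart had a median of 1.25 and mitochondria-specific ones of 0.97, a difference that was not tested.

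**Figure D2:**
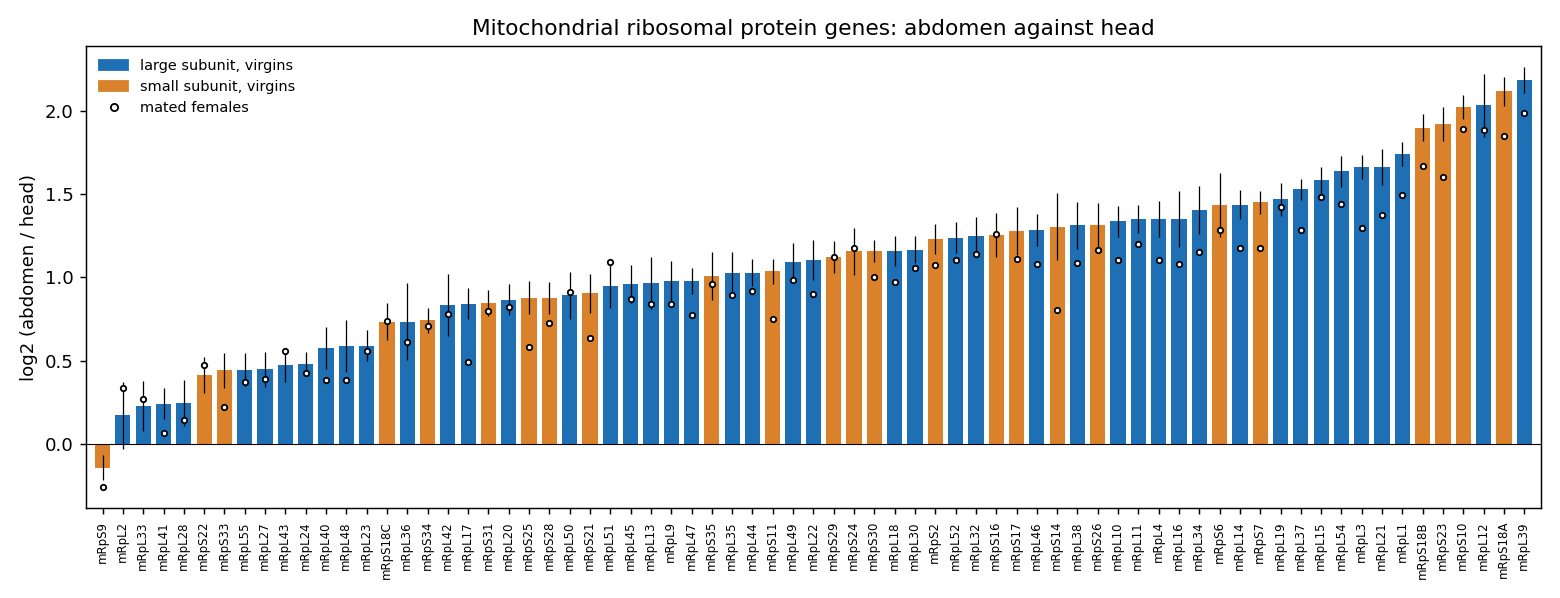
Log2 difference between abdomen and head for 71 genes, ordered by the value in virgins. Bars are virgins (3 libraries per tissue, lines are standard errors), coloured by subunit, and open circles are mated females (6 libraries per tissue). Values run from -0.14 for mRpS9 to 2.18 for mRpL39 in virgins.

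The largest difference was that of mRpL39 (FBgn0036462, BDGP6 3L:14997981-14999666, minus strand), a mitochondria-specific protein of the large subunit. On the scale of all 18 libraries it stood at 87.3, 78.8 and 80.1 scaled CPM in virgin abdomens and at 18.9, 18.1 and 17.1 in virgin heads. In mated abdomens it ranged from 63.2 to 70.3 (median 69.0), and in mated heads from 15.6 to 18.2 (median 17.4). Every abdomen library lay far above every head library, and separation of the tissues was a condition for naming the gene. The log2 difference was 2.18 (SE 0.078, adjusted p = 9.48e-14) in virgins and 1.98 (SE 0.054, adjusted p = 1.97e-15) in mated females by edgeR's quasi-likelihood test.

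mRpS18A (FBgn0051450, 3R:8561917-8562593, minus strand) was read at 65.0, 65.8 and 62.9 scaled CPM in virgin abdomens against 14.8, 14.9 and 14.9 in virgin heads. Its log2 difference was 2.12 (SE 0.088) in virgins and 1.85 (SE 0.062) in mated females. mRpS10 (FBgn0038307, 3R:15229665-15230516, plus strand) followed with 59.7, 60.4 and 62.7 against 14.04, 15.7 and 15.2 scaled CPM, a difference of 2.02 (SE 0.074) in virgins and 1.89 (SE 0.052) in mated females. For both genes the tissues were fully separated, as the rule for naming genes required. mRpL12 (FBgn0011787, 3L:8956791-8957584, plus strand) differed by 2.03 (SE 0.19) and 1.88 (SE 0.13), with more scatter between abdomens, which stood at 63.2, 61.6 and 83.1 scaled CPM in virgins. mRpS23, a mitochondria-specific small subunit protein, completed the 5 largest in virgins with a log2 difference of 1.92 (SE 0.10), and mRpS18B those in mated females with 1.67 (SE 0.057).

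The family holds 3 paralogs of bacterial S18. In the human mitochondrial ribosome these proteins occupy different places, and the product of the human MRPS18A gene sits in the large subunit despite its name. In virgins mRpS18A and mRpS18B were higher in the abdomen by 2.12 and 1.90 on the log2 scale, and mRpS18C by 0.73 (SE 0.11). Its level was 16.3, 16.8 and 19.2 scaled CPM in virgin abdomens and 10.1, 10.5 and 10.8 in virgin heads. Per kb of exon, mRpS18A stood at 120, mRpS18B at 51.7 and mRpS18C at 35.7 in virgin abdomens, and at 23.2, 11.6 and 17.9 in virgin heads.

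mRpS9 (FBgn0037529, 3R:7889277-7902667, minus strand) was the exception. It stood at 82.5, 80.3 and 85.7 scaled CPM in virgin abdomens and at 86.6, 91.1 and 96.2 in virgin heads. Mated abdomens ranged from 70.8 to 88.3 (median 82.4) and mated heads from 91.0 to 103 (median 97.4). The mated tissues did not overlap, as the rule for naming genes required, and the gene was lower in the mated abdomen (log2 difference -0.26, SE 0.054, adjusted p = 0.000281, edgeR). In virgins its log2 difference was -0.14 (SE 0.077, adjusted p = 0.0956). The sign depended on the scaling, since it was 0.07 in mated females with library totals alone and 1.07 with libraries scaled on muscle and renal tubule genes. Its overlap with ArgRS-m, which is transcribed from the other strand, is given above.

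The other genes that did not pass in virgins were mRpL2 (log2 difference 0.17, SE 0.20), mRpL33 (0.23, SE 0.15) and mRpL28 (0.25, SE 0.14). In mated females those that did not pass were mRpL41 (0.07, SE 0.066) and mRpL28 (0.14, SE 0.096). mRpL28 stood at 44.0 to 50.1 scaled CPM in virgin abdomens and at 36.8 to 43.2 in virgin heads, next to each other without overlap.

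The genes of the respiratory chain, which the mitochondrial ribosome serves, went the opposite way between tissues. Of 70 nuclear respiratory chain genes tested, 67 were lower in the virgin abdomen and none was higher, with a median log2 difference of -0.998 (1.13 with libraries scaled on muscle and renal tubule markers), and all 13 mitochondrially encoded RNAs tested were lower, with a median of -2.02 (0.09 with that scaling). Examples are ND-49, a subunit of complex I (log2 difference -1.36, SE 0.073), and mt:CoI, the catalytic subunit of cytochrome c oxidase (-2.32, SE 0.18). The list of mitochondrially encoded RNAs is not of the respiratory chain alone, since it also counts the RNAs of the mitochondrial ribosome. Mitochondrial translation factors and synthetases were higher in the virgin abdomen in 27 of 29 cases and lower in 1 (median 1.17), and without tko and bonsai in 25 of 27 and lower in 1 (median 1.08). Apart from bonsai, the smallest p belonged to the initiation factor mIF3 (1.72, SE 0.086) and the synthetase TrpRS-m (1.62, SE 0.082). Genes for mitochondrial transcription, RNA handling and DNA replication were higher in 13 of 14 cases and lower in 1 (median 1.41), among them PolG1, the mitochondrial DNA polymerase (2.69, SE 0.094), and mtSSB, its single-strand binding protein (3.39, SE 0.10). That list also counts swa, which is known for mRNA localisation in the oocyte and not for a mitochondrial role. Most cytosolic ribosomal protein genes did not pass, with 7 higher and 18 lower of 87, where 88.5% of all genes differed. Their median was -0.11 (2.01 with scaling on muscle and tubule markers).

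**Figure D3:**
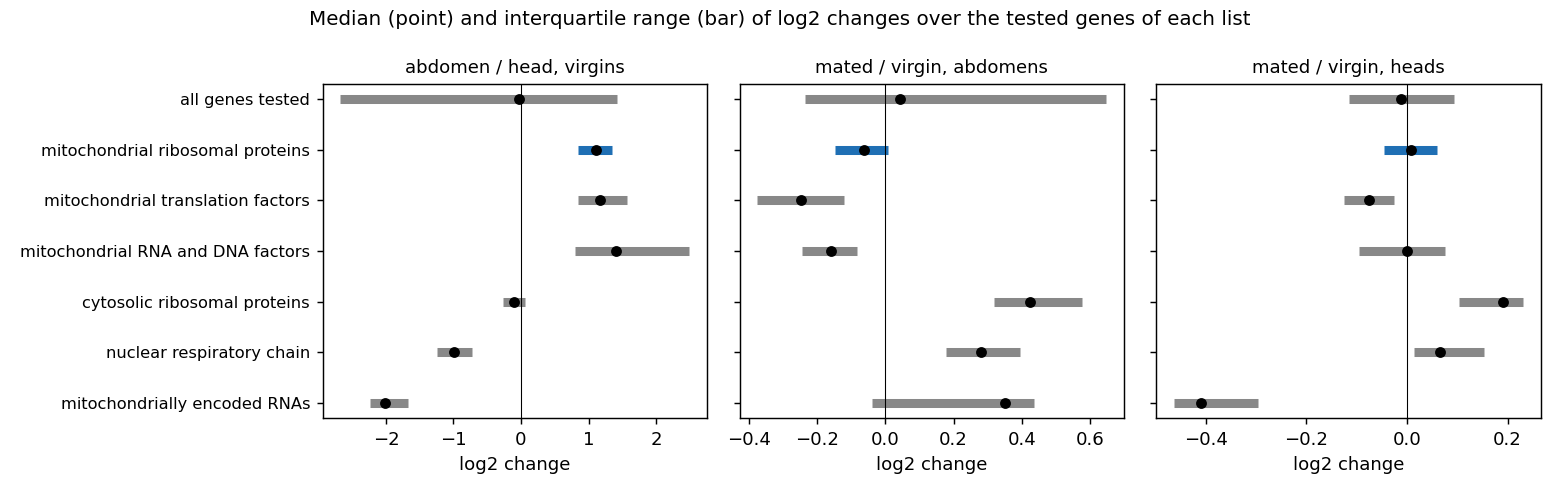
Median (point) and interquartile range (bar) of log2 changes over the tested genes of each list, for abdomen against head in virgins (left) and for mated against virgin females in abdomens (middle) and heads (right). The horizontal axes differ between panels, and the list of translation factors includes tko and bonsai. Mitochondrial ribosomal proteins (blue) have medians of 1.10, -0.06 (0.04 with upper quartile scaling) and 0.01.

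These tissue values are relative to the bulk of the genes. Another scaling shifted the median of all genes in virgins from -0.03 to as much as 2.04 (with libraries scaled on muscle and tubule markers). Measured from the all-gene median, mitochondrial ribosomal proteins lay 1.12 to 1.19 above it in virgins and 0.89 to 0.90 above it in mated females over the 5 scalings. Nuclear respiratory chain genes lay 0.91 to 0.97 below it in virgins. A change of scaling moves all genes nearly alike, so these distances hardly depend on it by construction. Cell type markers also differed between the tissues. In virgin abdomens 21 of 21 tested germline markers were higher, 13 of 15 follicle and eggshell markers were higher, and 19 of 21 muscle markers were lower. Fat body markers summed to 4382 to 5941 CPM in virgin abdomens and to 68139 to 81812 CPM in virgin heads. No germline marker other than cup (0 counts in both tissues) was without counts, and no follicle or muscle marker was. The part of cell composition in the difference between tissues was not tested.

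Mating was followed by a small decrease of some mitochondrial ribosomal protein genes in the abdomen. Of the 71 genes, 11 fell and none rose, where 54.2% of all 10350 genes changed, 25.2% falling and 29% rising (edgeR quasi-likelihood test, 6 mated against 3 virgin abdomens). The share that fell, 15.5%, was thus below that of all genes, and these counts show nothing particular to the family. The median log2 change was -0.06 (0.04 with upper quartile scaling) beside 0.04 over all genes, and 21 of 71 genes had a value above 0. The summed level of the 71 genes was 2975 ± 112 scaled CPM (SD, n = 3) in virgin abdomens and 2823 ± 200 (n = 6) in mated ones. All mated abdomens lay below all virgin ones in 11 genes (15.5%), beside 24.1% of all genes. They lay above all virgin ones in none, beside 26.1% of all genes. Lack of overlap was a condition for the 6 largest falls named below, so it is not a separate result. At an unadjusted p under 0.05 there were 14 genes (19.7%), all lower, beside 28.4% of all genes lower and 32.6% higher. DESeq2 called 18 lower (25.4%, beside 30.4% of all genes) and limma-voom 10 (14.1%, beside 25% of all genes).

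**Figure D4:**
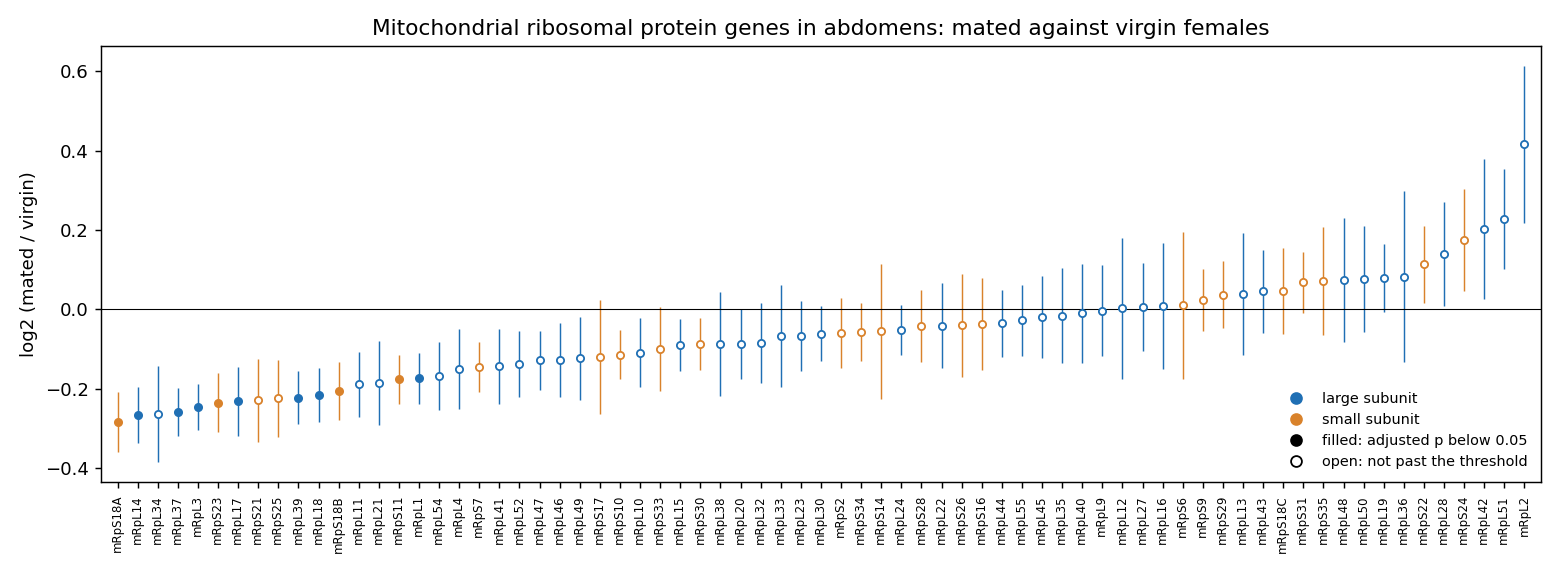
Log2 change between mated and virgin abdomens for 71 genes, in order of size, with standard errors. Filled points passed the test at an adjusted p below 0.05 and open points did not; blue is the large and orange the small subunit. The 11 filled points lie between -0.28 and -0.17, while mRpL2 at the right end, at 0.42, is open.

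mRpL37 (FBgn0261380, 3R:10782563-10784092, minus strand), specific to mitochondria, had the smallest p. On the scale of the 9 abdomen libraries it stood at 79.8, 71.1 and 73.9 scaled CPM in virgins, at 61.5, 64.7 and 61.8 after mating with M males and at 61.2, 63.5 and 63.0 after mating with P males. Every mated library lay below every virgin library. The log2 change was -0.26 (SE 0.061, adjusted p = 0.00526, edgeR), and it was called without each library in turn and under all 19 alternatives, with adjusted p from 9.26e-09 to 0.0439.

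mRpL3 (FBgn0030686, X:15761248-15762663, plus strand), whose bacterial counterpart lies near the peptidyl transferase centre, was read at 64.9, 67.7 and 69.4 scaled CPM in virgin abdomens, at 57.8, 55.9 and 56.6 in the M group and at 54.6, 58.8 and 56.8 in the P group. Virgin and mated abdomens were separate, and M and P overlapped. Its log2 change was -0.25 (SE 0.058, adjusted p = 0.0056). mRpL14 (FBgn0040389, X:2343997-2344649, minus strand), a single-exon gene, was read at 39.0, 38.5 and 37.2 in virgins and at 30.1 to 34.3 (median 31.3) in mated females, a change of -0.27 (SE 0.071, adjusted p = 0.0098).

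mRpS18A, the highest gene of the family per kb in virgin abdomens, stood at 71.2, 70.9 and 67.6 scaled CPM in virgins, at 54.7, 59.3 and 54.7 in the M group and at 51.6, 61.5 and 63.0 in the P group. It had the largest decrease that passed, at -0.28 (SE 0.075, adjusted p = 0.00984), with no overlap between mated and virgin abdomens. mRpL3, mRpL14 and mRpS18A passed without each library in turn but not with upper quartile scaling, and mRpL3 did not pass with run 2 only. mRpL39 changed from 88.9 ± 5.9 (SD, n = 3) to 76.2 ± 3.6 scaled CPM (n = 6), or -0.22 (SE 0.068, adjusted p = 0.0182), and was not called without virgin 1 (adjusted p = 0.0795). mRpL18 changed from 39.6 ± 1.6 to 34.1 ± 1.2, or -0.22 (SE 0.068, adjusted p = 0.0213), and was not called without virgin 3, M3 or P1 (largest adjusted p = 0.0745). Neither mRpL39 nor mRpL18 was called with upper quartile scaling or with run 2 only, and mRpL18 was not called with a replicate block either.

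The other genes that fell were mRpS23 (log2 change -0.24), mRpL17 (-0.23), mRpS18B (-0.21), mRpS11 (-0.18) and mRpL1 (-0.17). Each lost its call when certain single libraries were left out, with largest adjusted p of 0.0818 for mRpS23, 0.202 for mRpL17, 0.107 for mRpS18B, 0.0869 for mRpS11 and 0.146 for mRpL1. Of the 11 genes, 7 belong by name to the large subunit and 4, mRpS18A among them, to the small one, and 8 have a bacterial counterpart. The count of genes that fell was 5 without M3 or without P1, beside 20.8% and 21.1% of all genes. It was 6 without virgin 1 or without virgin 3 (beside 20.4% and 19.6%), and 7 without M2 (beside 23.1%). It was 1 (mRpL37) with upper quartile scaling, beside 16.2% of all genes, and 71 with scaling on muscle and tubule markers, beside 64.4%. The median was 0.04 and -0.89 under these scalings and that of all genes 0.14 and -0.77. Measured from the all-gene median, the members' median was between -0.11 and -0.10 over the 5 scalings. A change of scaling shifts all genes nearly alike, so this range is narrow by construction.

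**Figure D5:**
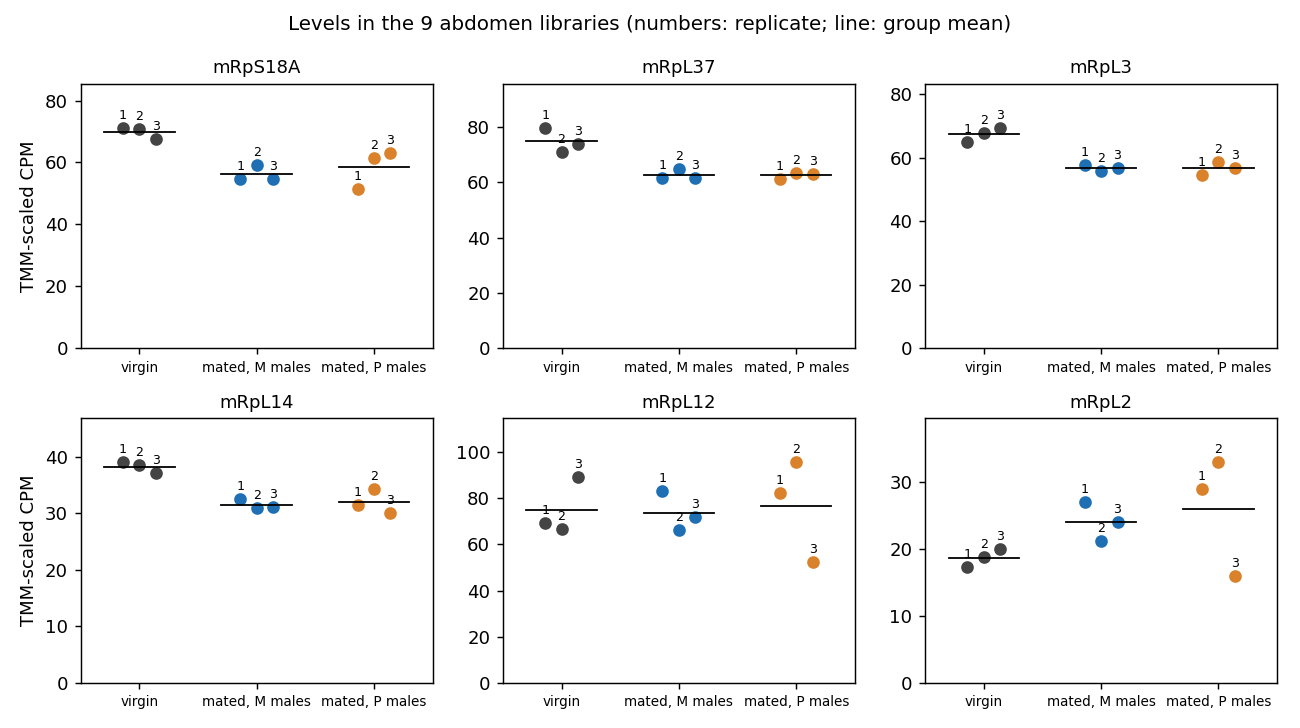
Scaled CPM of 6 genes in each of the 9 abdomen libraries, grouped as virgin, mated with M males and mated with P males; digits give the replicate or male population and lines the group means. mRpS18A, mRpL37, mRpL3 and mRpL14, named by a rule that asked for no overlap, show mated libraries below virgin ones. In contrast, mRpL12 and mRpL2 spread widely, with P2 highest and P3 lowest among mated libraries.

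mRpL2 (FBgn0036135, 3L:11120847-11122041, plus strand) had the largest value in the other direction. Its levels were 17.3, 18.9 and 20.05 scaled CPM in virgin abdomens, 27.1, 21.3 and 24.01 in the M group and 28.9, 33.0 and 15.9 in the P group. All mated libraries but P3 lay above the virgin ones, and P3 lay below them. The log2 change of 0.42 (SE 0.20) did not pass (adjusted p = 0.0976). Without P3, a library singled out after its value was seen, the change was 0.54 and passed (adjusted p = 0.00203, edgeR), as did mRpL51 (0.30, adjusted p = 0.0240). In that fit 29.9% of all genes rose. No gene of the family rose when any other single abdomen library was left out, so both calls depend on that choice of library.

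Of the mitochondrial translation factors and synthetases, which load and drive the mitochondrial ribosome, 17 of 29 fell and none rose, with a median of -0.25. Bonsai is 1 of these 17, and without it and tko 16 of 27 fell and none rose, again with a median of -0.25. TrpRS-m had a log2 change of -0.66 (SE 0.081), LeuRS-m of -0.42 (SE 0.075) and ArgRS-m of -0.45 (SE 0.090). Of the 14 genes for mitochondrial RNA and DNA, 6 fell and none rose (median -0.16), swa being one of them. Nuclear respiratory chain genes had a median of 0.28 (-0.56 with scaling on muscle and tubule markers), and 8 of 65 rose and 1 fell, COX8 with 0.57 (SE 0.13). Cytosolic ribosomal protein genes had a median of 0.43 (-0.41 with that scaling), and 43 of 87 rose and none fell, RpLP0 with 1.17 (SE 0.22). Measured from the all-gene median these lists lay 0.22 to 0.24 and 0.36 to 0.38 above it over the 5 scalings, and translation factors, tko and bonsai included, 0.29 below it. Such distances hardly depend on the scaling by construction. Between the lists no difference was tested.

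Markers of cell types changed in the same abdomens. Of 21 germline markers tested 15 fell and 1 rose (median -0.36), and their summed level was 14244 to 14943 CPM in virgins and 10733 to 13337 CPM in mated females. Of 15 follicle and eggshell markers 12 rose and none fell, with sums of 1848 to 2457 CPM and 7342 to 18508 CPM. Of 21 muscle markers 17 rose and 1 fell, and of 7 fat body markers 5 rose and none fell. Apart from cup, all markers of these 4 lists had counts. The part of such shifts in the values of mitochondrial ribosomal protein genes was not tested.

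Within the 6 mated abdomens, mitochondrial ribosomal protein genes followed their library closely. P2 was the highest library for 59 of 71 genes (83.1%, beside 21.7% of all genes) and P3 the lowest for 45 (63.4%, beside 24.6%). The summed level was 3146 scaled CPM in P2 and 2571 in P3, and 2698 to 2935 in the other 4. The same libraries were the extremes for other genes of protein synthesis and respiration: P2 was highest for 66 of 87 cytosolic ribosomal protein genes and 47 of 65 nuclear respiratory chain genes, and P3 lowest for 71 and 50. P2 also had the lowest sum of germline markers among mated abdomens, at 10733 CPM, and the highest of follicle and eggshell markers, at 18508 CPM. P3 had the highest sum of germline markers, at 13337 CPM, and the lowest of follicle and eggshell markers, at 7342 CPM. The relation between these values was not tested.

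Genes of the family differed in how far they moved between these libraries. For 12 of 71 genes the highest mated abdomen exceeded the lowest by more than 1.5-fold, beside 3363 of all 10350 genes. In all 12 the highest was P2 and the lowest P3. mRpL2 spanned 2.07-fold, mRpL36 1.93-fold, mRpL12 1.82-fold and mRpS6 1.74-fold. mRpL37 spanned only 1.06-fold and mRpL3 1.08-fold, less than nearly all genes (0.541% and 0.986% of tested genes had a lower coefficient of variation). The median span was 1.25-fold for the family, 1.34-fold for all genes and 1.59-fold for cytosolic ribosomal proteins. In mated heads 6 of 71 genes spanned more than 1.5-fold, beside 2812 of all 10886 genes, and each of the 6 was highest in P2. These 6, mRpL2, mRpL12, mRpL16, mRpL36, mRpL42 and mRpS14, were all among the 12 of the abdomen, that is 100% of the head list and 50.0% of the abdomen list. The same overlap was not counted over all genes. Heads and abdomens of a mating may come from the same females, which the labels do not state.

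In heads no mitochondrial ribosomal protein gene passed the test of mating (edgeR quasi-likelihood test, 71 genes tested), where 2.21% of all 10886 genes did (0.863% higher and 1.35% lower). DESeq2 and limma-voom called none either, and 3 genes (4.23%) had an unadjusted p under 0.05, all with higher values after mating, beside 7.26% of all genes higher and 8.43% lower. The smallest adjusted p was 0.268, for mRpS14, at 2.70, 2.36 and 3.38 scaled CPM in virgins and at 2.82 to 4.30 (median 3.73) in mated females, so the groups overlapped. Its log2 change was 0.38 (SE 0.15), that of mRpL48 0.21 (SE 0.090) and that of mRpL16 0.22 (SE 0.095). The median change was 0.01 beside -0.01 over all genes, and the summed level was 1162 ± 40 scaled CPM (SD, n = 3) in virgin heads and 1179 ± 35 (n = 6) in mated ones. Without the 3 heads that held midgut protease transcripts the median was -0.01 and again no gene was called. The mitochondrially encoded RNAs had a median of -0.41 in the same heads, with 0 of 13 past the threshold, and cytosolic ribosomal protein genes 0.19, with 0 of 85.

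The change with mating was more negative in abdomens than in heads for 6 genes and more positive for none, where the change differed for 37.2% of all 11631 genes, 18.6% in each direction (edgeR, interaction of tissue and mating). mRpL3 had the largest called difference, at -0.37 (SE 0.086, adjusted p = 0.00441). On the scale of all 18 libraries its mean went from 62.2 ± 2.7 (SD, n = 3) to 50.5 ± 1.3 scaled CPM (n = 6) in abdomens and from 19.6 ± 0.83 to 20.6 ± 1.4 in heads. The others were mRpL17 (-0.35, adjusted p = 0.0258), mRpS11 (-0.28, adjusted p = 0.0217), mRpS7 (-0.27, adjusted p = 0.0190), mRpL1 (-0.25, adjusted p = 0.0327) and mRpL37 (-0.24, adjusted p = 0.0222). In bacteria the counterpart of mRpL1 forms the mobile stalk where used tRNA leaves, and those of mRpS7 and mRpS11 line the exit site of the small subunit. The median difference was -0.15 beside 0.03 over all genes. DESeq2 called 7 (beside 17.6% of all genes in that direction) and limma-voom 6 (beside 17.2%). Without the 3 heads with midgut protease transcripts 3 genes were called, mRpL3, mRpS11 and mRpL1, beside 11.2% of all genes. With library totals alone only mRpL3 was, beside 10.5%. With upper quartile scaling the median was -0.0028 and none was called, beside 8.06% of all genes.

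The regime of the male population made no difference that passed the test in either tissue. Between mates of P and M males, none of the 71 genes passed in abdomens or heads, and 0% of all genes did in both. In abdomens none had an unadjusted p under 0.05, beside 1.79% of all genes, and neither DESeq2 nor limma-voom called any. The log2 differences between P and M ran from -0.07 (mRpS18B) to 0.17 (mRpS14) with a median of 0.04. That median rested on single libraries, since it was -0.04 without P2, 0.10 without P3, 0.08 without M1 and 0.02 without M2. The genes with the smallest p were mRpS34, at 24.7, 23.8 and 23.7 scaled CPM in the M group and 26.1, 26.9 and 24.6 in the P group, mRpL20 and mRpL30. mRpS34 thus overlapped between regimes, as did every gene of the family in abdomens. Of all genes, 2.90% lay without overlap higher in P abdomens and 2.61% lower.

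In heads 6 genes (8.45%) had an unadjusted p under 0.05 between P and M, all higher in the P group, beside 4.78% of all genes higher and 3.16% lower. They had a smallest adjusted p of 0.614 and no call by DESeq2 or limma-voom. mRpL16 was read at 11.9, 10.8 and 9.91 scaled CPM in the M group and at 14.1, 15.4 and 12.002 in the P group, and its log2 difference was 0.35 (SE 0.11). mRpL2 was read at 15.3, 14.3 and 12.4 against 17.4, 20.97 and 15.4 (log2 difference 0.36, SE 0.13), and mRpS17 had a difference of 0.20 (SE 0.076). P heads lay above M heads without overlap in 7 of 71 genes and below in 2, beside 8.18% and 7.01% of all genes. The median difference was 0.03. It ran from 0.0053 without M3 to 0.055 without M2, and was 0.087 with no gene called without the 3 heads with midgut protease transcripts, of which 2 are M libraries.

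Outside the naming rule, tko and bonsai also encode proteins of the small subunit, the counterparts of bacterial S12 and S15. tko, whose loss-of-function alleles make flies bang-sensitive, stood at 27.6, 31.6 and 38.0 scaled CPM in virgin abdomens and at 11.01, 12.9 and 13.1 in virgin heads, a log2 difference of 1.39 (SE 0.16, adjusted p = 4.3e-07, edgeR). bonsai stood at 88.4, 87.4 and 87.5 against 29.8, 31.7 and 28.9, a difference of 1.54 (SE 0.070, adjusted p = 2.29e-12). In abdomens bonsai fell with mating by 0.21 on the log2 scale (SE 0.061, adjusted p = 0.0166), and tko had a log2 change of 0.06 (SE 0.15, adjusted p = 0.761). Neither passed the test of mating in heads or that between P and M.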

How the data were processed

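Heads and abdomens of virgin and mated females were sequenced with a stranded total RNA kit, per the labels' protocols. Per the submitters' processing notes, Trimmomatic 0.33, TopHat2 2.1.0, HTSeq 0.6.1 and the BDGP6 assembly were used. The deposited values are whole-number read counts per gene, not normalised by the authors. The annotation release and the strand setting of the counting are not given in the sources. Both sequencing runs of each of 18 libraries were summed, since the chi-square statistic per degree of freedom, for genes reaching 20 counts, was 1.81 to 3.32 between runs and 38.7 to 226.6 between libraries of a group.

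Tests used edgeR 4.0.16 (R 4.3.3): TMM scaling, filterByExpr, robust quasi-likelihood F tests and Benjamini-Hochberg adjustment over all genes tested, with a threshold of 0.05. Comparisons within a tissue used its 9 libraries, and tissue comparisons and the interaction all 18, so scaled CPM differ slightly between both scales. Mated is the mean of M and P. Symbols, exon lengths and overlaps came from Ensembl release 115, in which 17387 identifiers matched. mRpS5 was not analysed here. Alternatives were DESeq2 1.42.0, limma 3.58.1 (voom), 4 other scalings, no filter, single runs, a replicate block and leaving out libraries. The procedure was tested on simulated data with planted changes larger than any change of this family with mating. That test therefore does not show how well changes this small are recovered.

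Members and gene lists were chosen with earlier results of these data known. The genes named were up to 6 falls and 6 rises past the threshold without overlap between groups (5 each way between tissues; mean log2 CPM of at least 1), or the 3 with the smallest p where fewer than 3 passed, the 4 highest and lowest per kb, the mRpS18 paralogs, tko and bonsai, and up to 3 genes of each other list by p. mRpL2 and mRpL51 in mated abdomens, mRpS9 in virgins and the remaining genes that fell or that spread widely were named after their values were seen. No sequence is shown. Counting limits cover counting error only.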

Additional observations from a re-analysis of the deposited data

Results flagged for a closer look

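Among 58 groups of 6 mated libraries examined, 3 held a library far from the others by Dixon's test, and chance alone gives about 1 in 20. In abdomens mRpL30 was highest in P2 at 63.3 scaled CPM, with the other mated libraries at 53.2 to 54.6. In heads P2 was lowest for mRpL18 at 11.6 scaled CPM (others 13.97 to 14.6) and for mRpS18A at 11.1 (others 12.7 to 13.4). For 6 genes the mating effect differed between abdomen and head by edgeR's interaction test, beside 37.2% of all genes, 18.6% in each direction. Their log2 differences were -0.37 for mRpL3, -0.35 for mRpL17, -0.28 for mRpS11, -0.27 for mRpS7, -0.25 for mRpL1 and -0.24 for mRpL37.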

How the results depend on the processing

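In mated against virgin abdomens the count of genes that fell (11) was 18 with DESeq2, 71 with muscle and tubule scaling, 1 with upper quartile scaling, 3 with run 2 only (where 1, mRpL2, rose), and 5 to 13 without single libraries (0 to 2 rose); the median was -0.89 with muscle and tubule scaling and 0.040 with upper quartile scaling (-0.11 to -0.05 without single libraries). Of all genes, 30.4% fell with DESeq2, 64.4% with muscle and tubule scaling and 16.2% with upper quartile scaling. With run 2 only 23.6% of all genes fell and 26.7% rose. Without single libraries 19.6% to 27% of all genes fell. Replicate numbers were not treated as pairs, since the labels do not state a pairing. Same-numbered libraries had correlated deviations above 0.1 in 0 of 9 abdomen, 4 of 9 head and 2 of 9 head-abdomen pairs. The correlations ran up to 0.034, 0.69 and 0.21, and with 3 libraries per group they cannot exclude a pairing. With the replicate block 6 genes fell in mated abdomens (beside 21.4% of all genes) and 5 passed the interaction (beside 19.6% of all genes in that direction). Other counts of calls stayed within 1.5 times. Between tissues in virgins mRpS9 became the 1 lower gene with DESeq2, DESeq2 size factors, no filter, run 2 only and upper quartile scaling (0 to 1 without single libraries), and the median was 0.91 with DESeq2 and with its size factors, 1.36 with library totals, 3.24 with muscle and tubule scaling, 0.98 with run 2 and 0.82 with upper quartile scaling. In mated females these medians were 0.80, 0.80, 1.30, 2.30, 0.89 and 0.83, and the count lower was 0 with library totals and with muscle and tubule scaling, since mRpS9 turned to 0.066 and 1.07. The interaction count (6) was 1 with library totals (beside 10.5% of all genes) and 71 with muscle and tubule scaling (53.7%). It was 0 with run 2 (12%) or upper quartile scaling (8.06%). Without the heads of virgin 1, M1 and M2 it was 3 (11.2%), and without single libraries 4 to 9 (13.1% to 20.1%). These shares are of all genes with a more negative change in abdomens. The interaction median was -0.95 with muscle and tubule scaling and -0.0028 with upper quartile scaling. mRpS18C turned to -0.78 in mated abdomens with muscle and tubule scaling, and in mated heads to 0.018 there, 0.050 with run 2 and 0.0097 and 0.0055 without M3 and P3 (range -0.053 to 0.0097 without single libraries; main value -0.02, not past the threshold). The cause was not tested. Of the other alternative values of named genes, 899 kept direction and side of the threshold and 63 lost it. Per-kb medians with the longest transcript were 44.8 and 17.9. Depth limits the lowest genes, such as mRpS14 at about 3 scaled CPM in heads.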
